A study of Homo sapiens with 4 samples.

Results

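Genes of γ-aminobutyric acid (GABA) metabolism and transport, GAD1, GAD2, SLC32A1 and ABAT, were followed through the cell classes, neurotransmitter identities, neuron subtypes, treatments and days of human enteric ganglioids. They were selected by name, and all 4 were found among the 36601 genes of the deposited count matrices. Enteric ganglioids are 3D cultures of enteric neurons and their precursors, here made from the human embryonic stem cell line H9, and their nuclei were profiled by single-nucleus RNA sequencing (snRNA-seq). There were 2 control samples and 2 samples given PP121, a kinase inhibitor, at 2 µM between day 15 and day 20 of differentiation. Each sample was a pool of stage 1 ganglioids grown in suspension, and the labels number the samples of each group as differentiation replicate 1 or 2. The p-values for PP121 against control rest on the spread between these replicates of 1 line. Those for neurons split by their UMIs compare nuclei within the same samples. The deposited annotation dated replicate 1 of both groups to day 42 and replicate 2 of both groups to day 38. Day and differentiation replicate therefore cannot be told apart. The p-values between days set the 2 samples of 1 replicate number against those of the other, so they do not measure the spread between differentiations.

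GABA is the main inhibitory transmitter of the mature central nervous system and is also made by a minority of neurons of the gut wall. GAD1 and GAD2 encode the glutamate decarboxylases, which make GABA from glutamate with pyridoxal phosphate as cofactor. SLC32A1 encodes the vesicular inhibitory amino acid transporter, which loads GABA and also glycine into synaptic vesicles, so its RNA alone does not tell which of both transmitters is loaded. ABAT encodes the mitochondrial GABA transaminase, which breaks GABA down and which is found in many cells that do not make GABA.

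On GRCh38, the build listed in the submitters' processing notes, GAD1 spans chr2:170813213-170861151, GAD2 chr10:26216307-26304558, SLC32A1 chr20:38724462-38729372 and ABAT chr16:8674565-8784575 in the GENCODE annotation, all on the plus strand. GAD1 overlaps the antisense gene AC007405.2, which held 59 UMIs (unique molecular identifiers, the counted molecules) in all annotated nuclei. ABAT overlaps TMEM186, a gene on the other strand with 798 UMIs, and 3 small features that are not among the counted genes. Whether the counting used strand is not given in the sources used here, so reads of these overlapping pairs are uncertain, whereas GAD2 and SLC32A1 overlap no other annotated gene.

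The sequences around the start sites of the members are shown because the levels of GAD1, GAD2 and SLC32A1 varied together across neuron subtypes (below), whereas those of ABAT did so less. All 4 members matched the RefSeq table of start-site windows (GRCh38.p14), which gives 250 bases before and 50 bases after a start. The first listed window of each gene is chr2:170816637-170816936 for GAD1, chr10:26216122-26216421 for GAD2, chr20:38724236-38724535 for SLC32A1 and chr16:8674367-8674666 for ABAT, each on the plus strand and written 5′ to 3′. Capitals mark the letters CAGCTG (an E-box form), TAATTA (a homeodomain core) or TATAAA (a core promoter motif) on either strand.
GAD1: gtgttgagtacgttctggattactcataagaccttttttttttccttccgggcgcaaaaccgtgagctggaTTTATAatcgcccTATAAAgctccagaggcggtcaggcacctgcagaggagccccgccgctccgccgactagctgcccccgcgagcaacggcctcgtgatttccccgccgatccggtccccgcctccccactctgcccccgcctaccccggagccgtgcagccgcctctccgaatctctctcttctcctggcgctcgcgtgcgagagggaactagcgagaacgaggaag
GAD2: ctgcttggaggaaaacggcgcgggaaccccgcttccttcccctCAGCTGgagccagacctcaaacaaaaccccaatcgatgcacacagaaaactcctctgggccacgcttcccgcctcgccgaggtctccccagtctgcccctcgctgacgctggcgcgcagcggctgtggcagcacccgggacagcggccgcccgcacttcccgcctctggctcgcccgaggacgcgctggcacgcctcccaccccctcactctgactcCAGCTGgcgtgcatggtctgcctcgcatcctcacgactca
SLC32A1: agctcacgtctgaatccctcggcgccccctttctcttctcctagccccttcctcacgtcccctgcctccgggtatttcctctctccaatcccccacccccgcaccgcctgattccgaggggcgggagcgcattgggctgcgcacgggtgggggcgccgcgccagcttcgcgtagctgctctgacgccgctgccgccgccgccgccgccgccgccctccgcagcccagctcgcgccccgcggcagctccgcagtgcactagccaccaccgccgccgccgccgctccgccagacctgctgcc
ABAT: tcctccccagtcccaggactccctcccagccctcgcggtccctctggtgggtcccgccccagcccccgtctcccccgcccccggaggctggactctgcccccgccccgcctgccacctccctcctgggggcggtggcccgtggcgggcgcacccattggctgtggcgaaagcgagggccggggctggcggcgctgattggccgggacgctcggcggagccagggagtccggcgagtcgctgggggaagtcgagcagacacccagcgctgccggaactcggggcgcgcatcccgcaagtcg
The GAD1 window held TATAAA 2 times and the first listed GAD2 window held CAGCTG 2 times, whereas none of the 3 motifs was in the SLC32A1 window and the first listed ABAT window. Further listed starts of GAD2 and ABAT read differently. The other GAD2 window held none of the motifs, and of the other 3 ABAT windows, at 52.7%, 53.3% and 43% G and C, 2 that overlap held TAATTA 1 time each and 1 held CAGCTG 1 time. Of all 35116 windows of this length, 11.5% held TATAAA, 17.9% held CAGCTG and 4.84% held TAATTA. The 4 first listed windows were rich in G and C, at 61.7% for GAD1, 67.7% for GAD2, 74.0% for SLC32A1 and 76.3% for ABAT against a median of 58.7% over all windows. They held 29, 27, 38 and 32 CG pairs against a median of 14. These matches describe the letters only.

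The 4 matrices held 4846 to 8531 nuclei and 29305639 to 49428774 UMIs, and the authors annotated 2912 to 4587 nuclei a sample. Any pair of samples shared 4 to 15 cell barcodes over all nuclei, and 0 to 8 among annotated nuclei. The deposited column of sample names disagreed with the sample labels for both control samples, and samples were taken from the labels. The annotation also left out 372 and 196 nuclei of the control samples that were within the stated quality limits and none of the PP121 samples, and where it drew the line between neuron and progenitor depended on the treatment when set against clusters made over all samples. Nuclei annotated as enteric neurons numbered 976 to 2301 a sample, with medians of 7345, 7782, 7210 and 8102 UMIs. This and every further set of 4 values is given in the order control replicate 1, control replicate 2, PP121 replicate 1, PP121 replicate 2. The 11 general neuronal markers were all detected in them, at 7822 to 10785 CPM in sum (UMIs scaled to a common total), against 530 to 1291 CPM in the mesenchymal class. Genes that define enteric and autonomic neurons were low in the same nuclei. RET, the receptor of enteric precursors, stood at 1.19 to 1.71 CPM, and HAND2, a regulator of enteric neuron differentiation, at 0 to 0.09 CPM. A list of 9 regulators of central nervous system neurons summed to 619, 381, 553 and 268 CPM, most of it PAX2 at 528, 315, 476 and 210 CPM. The name enteric neuron is used below as deposited, and what these levels contribute to the levels of the 4 members was not tested.

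GAD1, GAD2 and SLC32A1 were concentrated in the annotated enteric neurons in every sample, whereas ABAT was most abundant in a progenitor class. Levels are CPM of the counts of all nuclei that a sample has in a class, and in such sums fewer nuclei that express a gene and less RNA in each of them cannot be told apart. In enteric neurons, GAD1 was at 46.4, 30.1, 49.4 and 25.5 CPM. In progenitor 1 it was at 5.31, 3.76, 7.41 and 5.91 CPM and in progenitor 2 at 10.7, 7.96, 11.2 and 8.96 CPM, so no progenitor value reached the lowest neuronal one. Enteric neurons exceeded both progenitor classes together 4.61 ± 0.956-fold (SD over 4 samples).

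GAD2 had the widest range between classes. Its level in enteric neurons was 118, 60.2, 107 and 33.1 CPM, and the ratio to progenitors was 11.3 ± 4.20-fold (SD over 4 samples). In progenitor 2 it was at 18.1, 4.63, 8.70 and 4.17 CPM and in progenitor 1 at 8.34, 3.51, 4.98 and 4.93 CPM. The ranges of neurons and progenitors did not overlap for GAD2 either, but its neuronal values spread more between samples than those of GAD1. SLC32A1 was the sparsest member, with 284, 83, 160 and 40 UMIs in all enteric neurons, or 15, 7.49, 9.50 and 4.57 CPM. It reached 4.04, 1.76, 2.99 and 1.31 CPM in progenitor 1, and neurons exceeded progenitors 4.62 ± 0.587-fold (SD over 4 samples).

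ABAT did not follow the synthetic enzymes. Progenitor 2 had the most, at 226, 223, 203 and 216 CPM. Enteric neurons, at 150, 127, 149 and 123 CPM, were below progenitor 2 in all 4 samples. Progenitor 1 was at 100 and 102 CPM in the replicates of day 42 and at 139 and 154 CPM in those of day 38, so it lay below neurons on day 42 and above them on day 38. The ratio of neurons to both progenitor classes was 0.767 ± 0.148 (SD over 4 samples). The mesenchymal class was the lowest of the 5 larger classes, at 44.8, 38.1, 30.3 and 40.6 CPM.

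**Figure D1:**
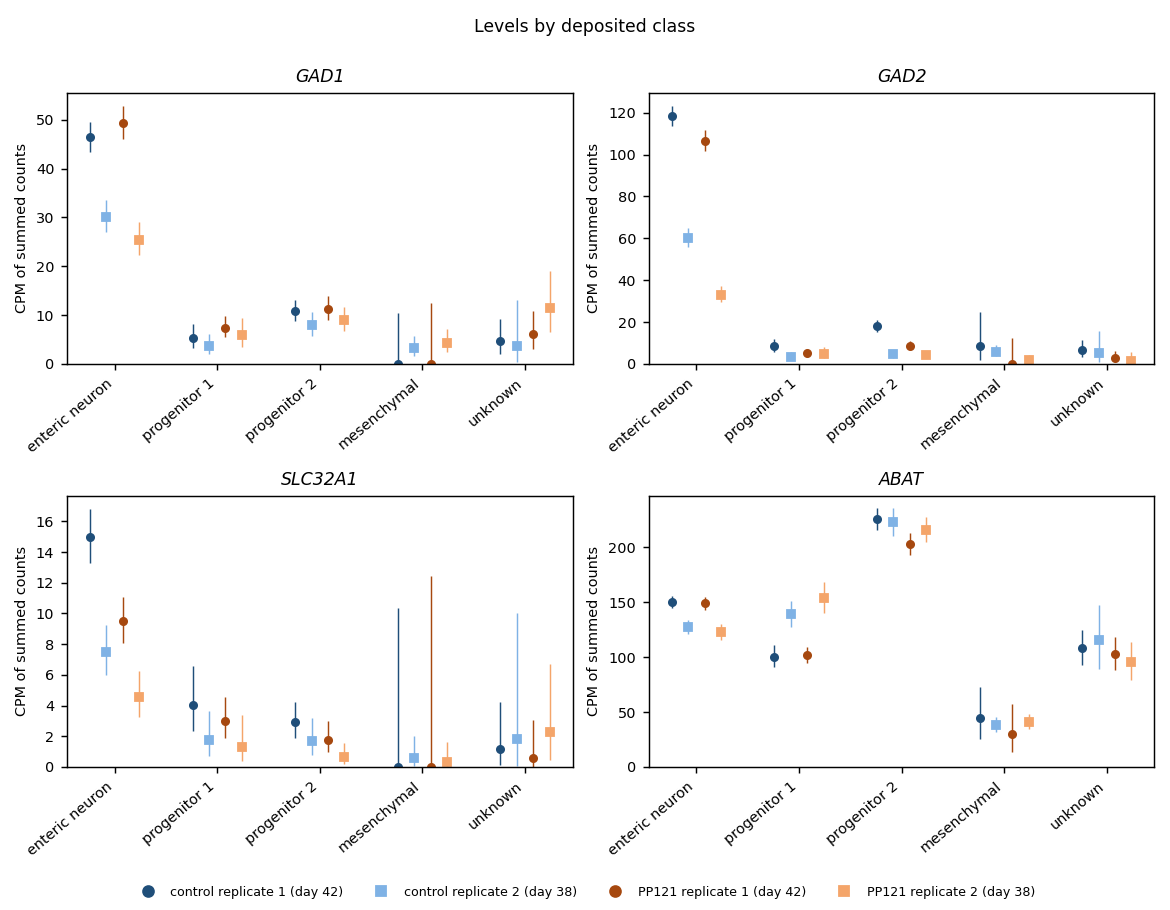
Level of each member by deposited class in the 4 samples, in CPM of counts summed over the nuclei of the class, with exact Poisson intervals at 95% that cover counting error only. Each panel has its own axis; the epithelial class, of 9 to 37 nuclei per sample, is not drawn. For GAD1, GAD2 and SLC32A1 the 4 neuronal values lie above those of both progenitor classes, whereas ABAT peaks in progenitor 2.

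Of all GAD2 UMIs in annotated nuclei, 91.4%, 91.0%, 94.2% and 85.0% were in enteric neurons, which made up 53.7%, 41.3%, 44.3% and 33.5% of nuclei. The neuronal share was 87.5%, 82.1%, 84.6% and 67.4% for GAD1 and 86.6%, 81.4%, 81.6% and 76.9% for SLC32A1. For ABAT it was 51.9%, 41.5%, 49.8% and 33.3%, close to the share of nuclei. To compare shares of nuclei at 1 depth, each nucleus was thinned to 2000 UMIs. After thinning, 17.5%, 9.22%, 16.5% and 4.62% of enteric neurons had a GAD2 UMI, and 6.59%, 4.81%, 8.20% and 4.31% had a GAD1 UMI. Without thinning, the share with a GAD1 UMI in control replicate 1 was 20.6% of neurons, so a nucleus with none cannot be called negative.

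Free RNA in droplets gives UMIs to nuclei that do not express a gene, and the mesenchymal class served as the comparison. There, after thinning, 0% to 0.952% of nuclei had a GAD1 UMI and 0% to 2.5% a GAD2 UMI, with 33 to 422 nuclei per sample and medians of 7227 to 8401 UMIs. Progenitor 2 had a GAD2 UMI in 3.05%, 0.591%, 1.64% and 0.705% of thinned nuclei, and a GAD1 UMI in 1.65%, 1.48%, 2.36% and 1.29%, so that its GAD1 share was above the mesenchymal one in each sample and its GAD2 share was below 1% on day 38. The neuronal shares of GAD1 and GAD2 exceeded those of every other class named here in all 4 samples.

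The deposited annotation gives neurons transmitter identities, which overlap and were set by the authors from imputed values of these same matrices. The rule for the GABAergic identity is not stated, and it may use the members themselves. Levels by identity are therefore a description without a test. Neurons with the GABAergic identity numbered 1032, 329, 858 and 158. Their GAD1 level was 84.8, 88.1, 104 and 116 CPM, against 10.3, 7.08, 6.99 and 6.56 CPM in neurons without it. GAD2 was at 160, 160, 212 and 145 CPM in GABAergic neurons and at 79.0, 19.1, 21.6 and 10.4 CPM in the others. The gap in GAD1 was wide in every sample, but a rule that uses GAD1 would fix it in advance. GAD2 in control replicate 1 was also high outside the identity. GABAergic neurons held 65.8%, 74.8%, 81.9% and 70.0% of the neuronal GAD2 UMIs and neurons annotated as not GABAergic 33.8%, 22.2%, 9.47% and 23.4%; the rest were in neurons whose deposited entry is neither. SLC32A1 was at 20.6, 18.6, 17.6 and 20.0 CPM with the identity and 9.80, 2.83, 3.05 and 1.07 CPM without it. ABAT was at 171, 164, 186 and 192 CPM with it and 129, 111, 116 and 103 CPM without it, the smallest relative gap of the 4.

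Among the other identities, cholinergic neurons had GAD2 levels near those of GABAergic ones, at 179, 146, 232 and 121 CPM. Most cholinergic neurons were also named GABAergic (548 of 768, 201 of 252, 579 of 627 and 66 of 93). The cholinergic neurons that were not GABAergic still had 169 CPM of GAD2 in control replicate 1, with 2.52 CPM of GAD1, but only 13.4 CPM in PP121 replicate 2, which rests on 3 UMIs. Glutamatergic neurons were low in GAD1, at 22.9, 15.7, 29.2 and 21.2 CPM, and those without the GABAergic identity had 5.64, 7.74, 6.0 and 7.49 CPM. Nitrergic (NO) neurons had 60.2 and 79.6 CPM of GAD1 on day 42 and 20.8 and 37.1 CPM on day 38. NO neurons that were also GABAergic had 109, 108, 154 and 105 CPM. Since the GABAergic identity may itself rest on GAD1, the levels in that overlap cannot be set against those of all NO neurons.

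**Figure D2:**
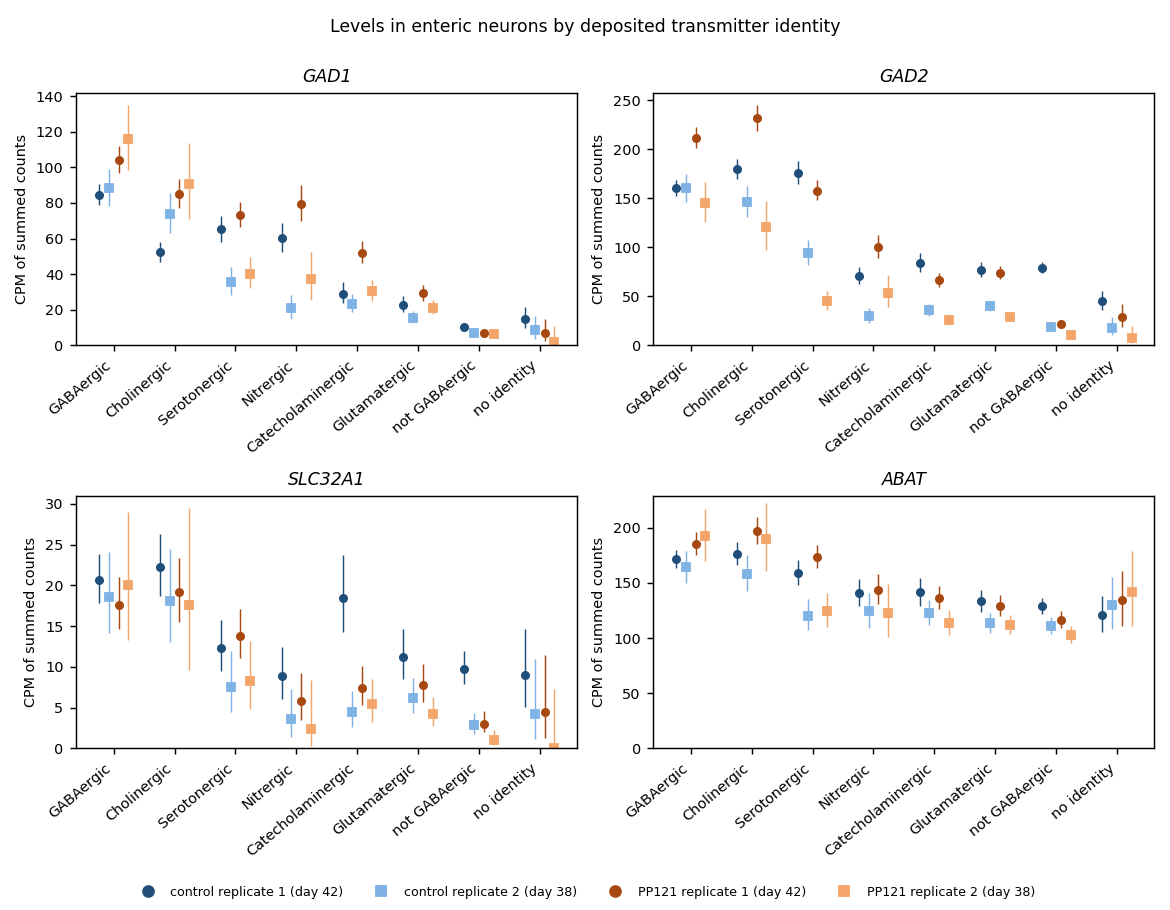
Level of each member in enteric neurons by deposited transmitter identity, in CPM of summed counts with exact Poisson intervals at 95% (counting error only). Identities overlap, so a nucleus can count in several columns. GAD1 is at 84.8 to 116 CPM in GABAergic neurons and at 6.56 to 10.3 CPM in those not GABAergic, whereas ABAT stays above 100 CPM in both.

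The authors divided control neurons into subtypes EN 1 to EN 8 and PP121 neurons into EN A to EN I by separate clustering, so subtypes are not matched across treatments, and since they were clustered on these counts, their levels are again a description. GAD2 was highest in EN 7 at 252 CPM in control replicate 1 (253 nuclei); control replicate 2 held 9 nuclei of EN 7. EN 3 followed at 175 and 173 CPM, EN 2 at 150 and 120 CPM and EN 5 at 142 and 160 CPM, and the replicates differed least in EN 3. The remaining subtypes had less GAD2, with 44.9 and 25.4 CPM in EN 1, 31.5 and 25.0 CPM in EN 6, 19.1 and 7.67 CPM in EN 4 and 14.8 and 2.07 CPM in EN 8.

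GAD1 ordered the subtypes differently. It was highest in EN 5, at 128 and 87.1 CPM, and EN 3, at 58.7 and 87.2 CPM, whereas EN 2 had 14.7 and 26.5 CPM and EN 7 36.6 CPM. EN 2 and EN 7 were thus high in GAD2 with less GAD1, and EN 5 was high in both. In PP121 samples, EN E combined 176 and 97.0 CPM of GAD1 with 207 and 198 CPM of GAD2, and EN C had 92.3 and 66.9 CPM of GAD1 with 243 and 234 CPM of GAD2. The PP121 replicate 2 sums of EN C and EN E held 36 and 29 nuclei. EN G, with 99 nuclei in PP121 replicate 1 and 1 in replicate 2, had 256 CPM of GAD2 and the highest ABAT level of any drawn subtype sum, 236 CPM. EN D, EN F, EN H and EN I were low in GAD1, at 8.75 CPM or less in both samples.

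SLC32A1 was at 20.9 and 21.0 CPM in EN 3 and 21.9 and 23.4 CPM in EN C, and at 4.99 CPM or less in EN 4, EN 6 and EN 8 of both control samples. Among sums of at least 50 nuclei ABAT varied least, from 63.6 CPM in EN I of PP121 replicate 2 to 236 CPM in EN G, and subtypes low in GAD2 still held it, with 143 and 136 CPM in EN 8 and 168 and 138 CPM in EN F.

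**Figure D3:**
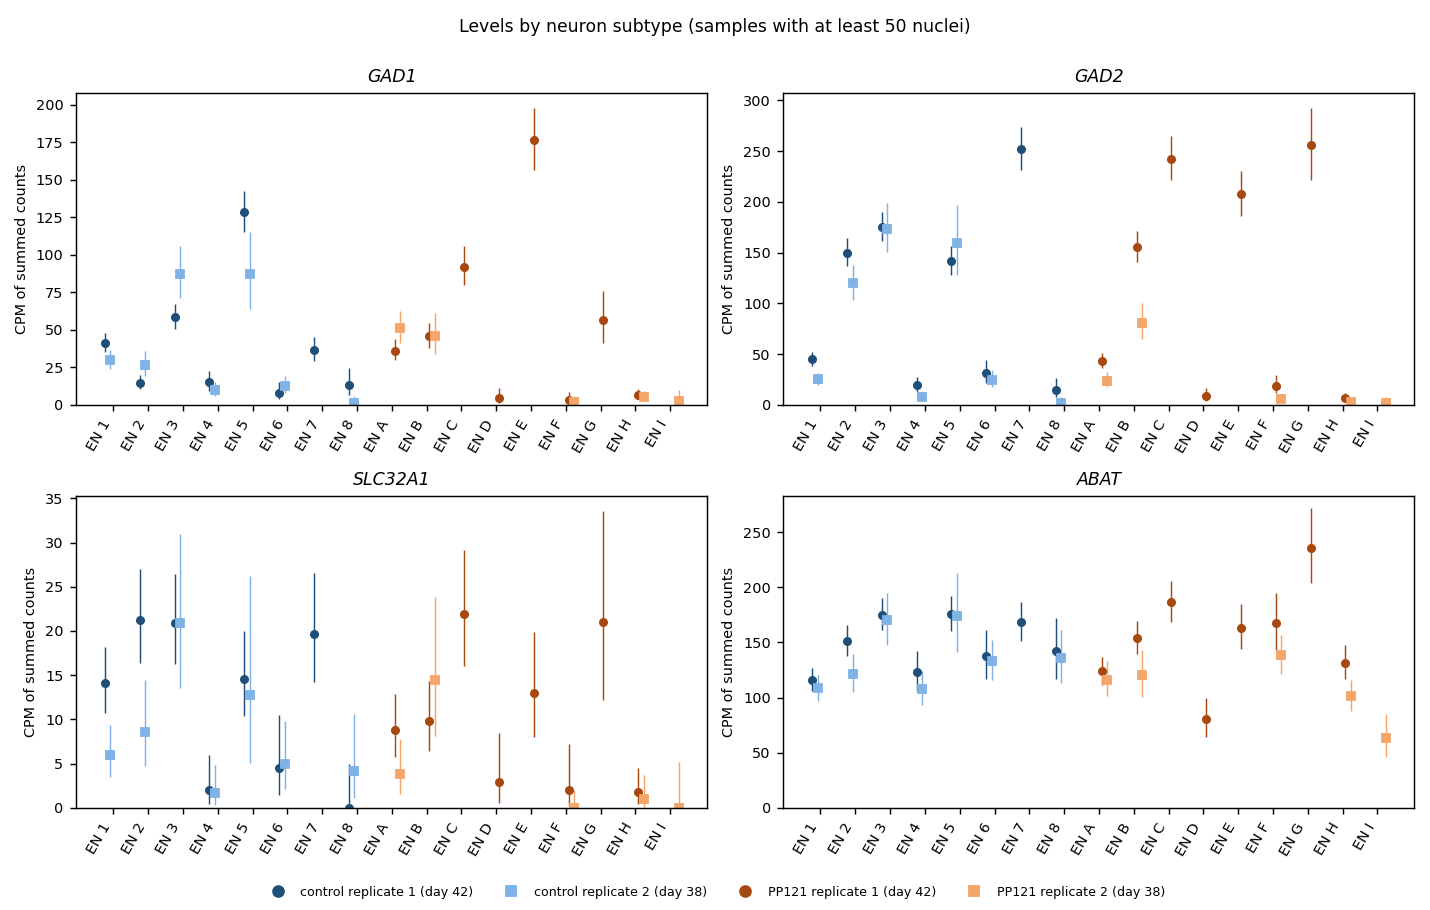
Level of each member by neuron subtype, in CPM of summed counts with exact Poisson intervals at 95% (counting error only), for subtype sums of at least 50 nuclei. EN 1 to EN 8 exist only in control and EN A to EN I only in PP121 samples. GAD2 separates EN 2, 3, 5, 7, B, C, E and G from the other subtypes, whereas ABAT is above 60 CPM in every drawn sum.

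Across the 28 subtype sums of at least 50 nuclei, Pearson's r of log2(CPM + 1), centred within each sample, was 0.86 between GAD1 and GAD2, 0.86 between GAD2 and SLC32A1 and 0.75 between GAD1 and SLC32A1. ABAT correlated less, at 0.47 with GAD1, 0.65 with GAD2 and 0.50 with SLC32A1. The sums share 4 libraries and differ in depth, so no p is given. Of 11294 genes with a mean of at least 10 CPM, those most like GAD2 were SLC6A5 (r = 0.95), the neuronal glycine transporter, KLHL14 (0.94), PAX2 (0.94), a transcription factor of inhibitory neurons of the spinal cord and hindbrain, PAX8 (0.93) and LAMP5 (0.92). GAD1 was most like CACNA2D3 (0.86), a calcium channel subunit, GAD2, SLC35F4 (0.86), SLC6A5 (0.86) and CACNA2D3-AS1 (0.84). SLC32A1 was most like PAX8 (0.91), SLC6A5 (0.90), KLHL14 (0.89), PAX8-AS1 (0.89) and LRTM1 (0.89). For ABAT the closest genes were SNAP23 (0.73), a membrane fusion protein, SV2C (0.72), a synaptic vesicle protein, AC113404.1 (0.71), KAT6B (0.70) and NAA40 (0.69), none of them as close as those of the other 3 members. SLC6A5 was abundant in enteric neurons, at 424, 332, 531 and 244 CPM.

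In single neurons the 2 decarboxylases were often found together. Without thinning, 59.0%, 59.4%, 67.9% and 50% of neurons with a GAD1 UMI also had a GAD2 UMI, against 36.0%, 15.4%, 26.0% and 9.51% of neurons without a GAD1 UMI. At the equal depth of 2000 UMIs the same shares were 20.5%, 25.0%, 36.1% and 19.1% against 17.3%, 8.42%, 14.7% and 3.97%. In control replicate 1, where GAD2 was most widespread, the gap was smallest. The 10% of neurons with the most UMIs of a gene held 72.4% to 92.8% of the GAD1 UMIs and 51.4% to 85.9% of the GAD2 UMIs, against 39.9% to 45.4% of the ABAT UMIs. A single neuron held at most 12 GAD1 UMIs and 16 GAD2 UMIs.

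Neurons with a GAD1 or GAD2 UMI at 2000 UMIs per nucleus (521, 160, 440 and 79) were then compared with neurons without one (1770, 1087, 1584 and 895) in the same samples. GAD1 and GAD2 chose the groups and are not tested. SLC32A1 was at 16.3, 12.5, 12.5 and 31.6 CPM with a GAD UMI and 12.4, 7.36, 8.21 and 3.35 CPM without, higher in 4 of 4 samples. These levels rest on few UMIs, 17, 4, 11 and 5 with a GAD UMI and 44, 16, 26 and 6 without. At this depth the difference did not pass the test (log2 fold change 0.82 ± 0.35 SE, edgeR adjusted p = 0.29), and without PP121 replicate 2 it was 0.57 (adjusted p = 0.49). Thinned to 4000 UMIs it was 1.33 ± 0.26 SE (adjusted p = 0.0034), among 738 genes called (4.79%), and without thinning 1.79 ± 0.28 SE (adjusted p = 0.0020), among 1102 genes called (5.81%). Without thinning, 15.3%, 15.1%, 12.5% and 13.8% of neurons with a GAD UMI had an SLC32A1 UMI, against 6.32%, 2.34%, 3.65% and 1.03% of the others. In the split at 2000 UMIs, neurons with a GAD UMI were somewhat deeper before thinning. Their medians were 7481, 8242, 7881 and 8266 UMIs against 7306, 7757, 7011 and 8096. In the split without thinning the gap in depth was wider, at 8486, 9333, 8650 and 9572 UMIs against 6264, 7400, 6308 and 7661. The part of depth in the SLC32A1 difference there was not tested.

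ABAT was higher with a GAD UMI in 4 of 4 samples, at 167, 162, 185 and 209 CPM against 143, 118, 145 and 114 CPM. The log2 fold change was 0.44 ± 0.11 SE (edgeR adjusted p = 0.0142), in a fit in which 465 of 12675 tested genes (3.67%) were called, 298 higher (2.35%) and 167 lower (1.32%) with a GAD UMI. The ABAT call was lost with DESeq2 (adjusted p = 0.098), with the split by GAD1 alone (0.46) or GAD2 alone (0.069), and without control replicate 2 (0.072) or PP121 replicate 1 (0.11).

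Beyond the members, the largest changes with a GAD UMI included transporters of inhibitory and excitatory transmitters. SLC6A5 was at 679, 991, 1002 and 1000 CPM with a GAD UMI and 342, 224, 395 and 155 CPM without (log2 fold change 1.73 ± 0.14 SE, adjusted p = 2.4e-10). SLC17A6, the vesicular glutamate transporter, went the other way, at 2.88, 15.6, 5.68 and 12.7 CPM with and 19.8, 40, 51.1 and 55.3 CPM without (−2.45 ± 0.31 SE, adjusted p = 1.3e-06). LMX1B, a transcription factor of serotonergic and of spinal excitatory neurons, was lower as well (−2.38 ± 0.33 SE). Other large rises were CDH18, a cadherin (1.70 ± 0.13 SE), SV2C (1.66 ± 0.16 SE), DNAJC5G, a chaperone of the cysteine string protein family (1.68 ± 0.25 SE), and 5 genes without an established function (CDH18-AS1, AL589693.1, ZFPM2-AS1, AC025887.2 and AC113404.1, from 1.66 to 1.73). AC105389.3 had the largest fall (−3.81 ± 0.26 SE), followed by AC104009.1 (−3.07) and AP003464.1 (−2.46). The largest rise by value, PIGX (2.19 ± 0.32 SE), came from PP121 replicate 1, with 231 CPM against 17.0; without that sample it was 0.63 (adjusted p = 0.51), and for the split by GAD1 alone it was −0.70. ZFPM2-AS1 lost its call without PP121 replicate 1 (1.21, adjusted p = 0.16) and for the split by GAD2 alone (0.69, adjusted p = 0.36).

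Of 60 further genes of the GABA pathway, 31 could be tested in this split: 4 rose, 1 fell and 26 did not pass. Over all genes tested, 3.67% were called, 2.35% higher and 1.32% lower. The median log2 fold change of the pathway genes was 0.05 against −0.01 over all genes tested. GABRG3, a GABA-A receptor subunit, was at 138, 56.2, 120 and 108 CPM with a GAD UMI against 49.4, 24.8, 40.4 and 42.5 CPM (1.51 ± 0.14 SE). The other 5 tested of 19 GABA-A subunits did not pass. KCTD8, an auxiliary subunit of the GABA-B receptor, fell, from 87.0, 86.5, 128 and 72.6 CPM without to 36.5, 40.6, 68.2 and 38 CPM with a GAD UMI (−1.0 ± 0.15 SE), whereas GABBR1 and GABBR2, the receptor itself, did not pass (0.15 and −0.06).

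Of 14 transcription factors of GABAergic neurons, 4 could be tested. PAX2 was at 822, 947, 852 and 829 CPM with a GAD UMI and 459, 223, 397 and 148 CPM without (1.55 ± 0.15 SE), and LHX1, which acts with PAX2 in inhibitory interneurons of the hindbrain and spinal cord, was at 83.5, 128, 88.6 and 101 CPM against 67.2, 40.9, 59.7 and 34.1 CPM (0.83 ± 0.17 SE, adjusted p = 0.0019). Both are also on the list of central nervous system regulators. DLX1, DLX2, DLX5, DLX6 and LHX6, which specify forebrain GABAergic neurons, were at or near 0, at 0.36 CPM or less in the neurons of every sample. Neurons with a GAD UMI thus held more PAX2 in all 4 samples, and its part in the levels of the 4 members was not tested.

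**Figure D4:**
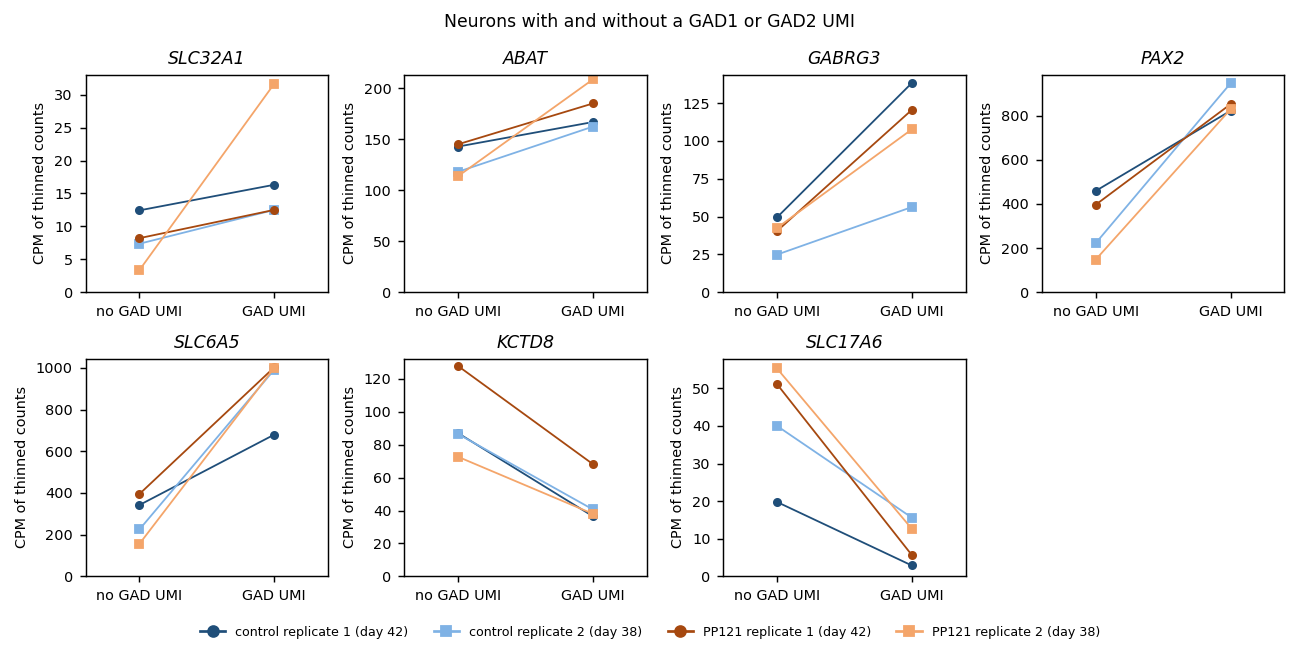
Levels of 7 genes in neurons without and with a GAD1 or GAD2 UMI, in CPM of counts thinned to 2000 UMIs per nucleus; each line joins the values of 1 sample. SLC6A5, PAX2 and GABRG3 rise and SLC17A6 and KCTD8 fall in all 4 samples, whereas the SLC32A1 lines differ in slope, from 12.4 to 16.3 CPM in control replicate 1 and from 3.35 (6 UMIs) to 31.6 CPM (5 UMIs) in PP121 replicate 2.

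The effect of PP121 was next examined, first in enteric neurons. Within day 42, GAD1 was at 46.4 CPM in control and 49.4 CPM in the PP121 sample, and within day 38 at 30.1 and 25.5 CPM. ABAT was at 150 and 149 CPM on day 42 and 127 and 123 CPM on day 38. For both genes, the difference between treatments was smaller than that between days, and the log2 fold changes were 0.01 ± 0.31 SE for GAD1 and 0.01 ± 0.14 SE for ABAT (edgeR adjusted p = 0.99 for both). GAD2 was lower in the PP121 sample of each day, 107 against 118 CPM on day 42 and 33.1 against 60.2 CPM on day 38 (−0.31 ± 0.50 SE, adjusted p = 0.83). SLC32A1 was also lower on both days, 9.50 against 15 CPM and 4.57 against 7.49 CPM (−0.62 ± 0.41 SE, adjusted p = 0.57).

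None of the members, and 0 of 21243 tested genes (0%), were called in this fit by edgeR; 2549 genes had an unadjusted p under 0.05, and DESeq2 called 102. With the replicate, which marks the day, as a block, GAD2 (−0.42 ± 0.12 SE, adjusted p = 0.0205) and SLC32A1 (−0.64 ± 0.19 SE, adjusted p = 0.0260) were called lower, in a fit that called 3152 genes (14.8%) and had 1 residual degree of freedom. GAD1 (−0.02, adjusted p = 0.96) and ABAT (0.01, adjusted p = 0.98) were not. With neurons redefined by clusters over all samples and the same block, GAD2 (−0.46, adjusted p = 0.074) and SLC32A1 (−0.63, adjusted p = 0.078) did not pass, nor did GAD2 with DESeq2 and the block (adjusted p = 0.20). Without PP121 replicate 1 and without the block, GAD2 was at −1.36 (adjusted p = 0.0010) and SLC32A1 at −1.24 (adjusted p = 0.0395), a setting in which day 42 is left only in control. Without PP121 replicate 2 or without control replicate 1, GAD2 turned to 0.27 and 0.22 (adjusted p = 0.79 and 0.99).

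The share of thinned neurons with a UMI differed by 0.556 percentage points for GAD1, −2.80 for GAD2, −0.598 for SLC32A1 and −0.116 for ABAT between PP121 and control means, over 4 comparisons. The exact two-sided permutation p was 1, 0.667, 0.667 and 1 (all 1 when adjusted), and 2 against 2 samples cannot go below 0.333. Within days, the GAD2 difference was −1.0 points on day 42 and −4.60 points on day 38.

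In progenitors, 0 of 20260 genes (0%) were called without the block, with 962 genes at an unadjusted p under 0.05 and 43 called by DESeq2. GAD2 was at 15.1, 4.15, 6.96 and 4.41 CPM there (−0.76 ± 0.48 SE, adjusted p = 1.00). GAD1 was at 9.07, 6.18, 9.43 and 7.98 CPM, SLC32A1 at 3.26, 1.70, 2.34 and 0.840 CPM and ABAT at 187, 187, 155 and 196 CPM. None of the members was called with the block either, which called 349 genes (1.72%). The interaction of PP121 with class, which asks whether the effect differs between neurons and progenitors, called 0 of 21787 genes (0%) and no member, with a value of 0.45 ± 0.86 SE for GAD2.

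Of the 60 further pathway genes, 43 were tested in neurons and 0 passed without the block, with a median log2 fold change of −0.05 against 0.00 over all genes tested. With the block, 3 rose and 5 fell, in a fit that called 14.8% of all genes. Those that rose included KCTD12 (1.27; 0.422, 4.60, 3.45 and 5.25 CPM, lowest in control replicate 1) and KCTD8 (0.36), GABA-B auxiliary subunits. Those that fell included PAX2 (−0.32) and GABRB1 (−0.95), a GABA-A subunit. GABRB1 was at 13.1, 4.15, 3.80 and 5.03 CPM, highest in control replicate 1, and on day 38 it was not lower with PP121. In progenitors 1 of 41 tested genes fell with the block, PAX2 (−0.96), and none rose.

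The replicates of day 42 and those of day 38 were compared next. In enteric neurons, day 42 exceeded day 38 for all 4 members in control as in PP121 samples, by 1.54 and 1.94-fold for GAD1, 1.97 and 3.22-fold for GAD2, 2.00 and 2.08-fold for SLC32A1, and 1.18 and 1.22-fold for ABAT. With samples of both treatments pooled, no member passed, GAD2 standing at −1.21 ± 0.26 SE (edgeR adjusted p = 0.55) for day 38 against day 42. The pooled fit called 0 of 21243 genes (0%), with 1574 at an unadjusted p under 0.05. DESeq2 called 59, GAD2 among them (adjusted p = 0.0084). Without control replicate 2, GAD2 was at −1.68, a setting in which day 38 is left only in PP121. With treatment in the design, the calls were GAD2 (−1.25 ± 0.13 SE, adjusted p = 5.9e-08), GAD1 (−0.72 ± 0.12 SE, adjusted p = 2.0e-04) and SLC32A1 (−0.96 ± 0.20 SE, adjusted p = 0.0015), but not ABAT (−0.20 ± 0.09 SE, adjusted p = 0.19). This fit called 2015 genes (9.49%) with 1 residual degree of freedom. With DESeq2 and treatment in the design, GAD1 (adjusted p = 0.026) and GAD2 (6.7e-08) were called and SLC32A1 was not (0.17). Other lists moved with the day in the same neurons. The 13 mesenchymal markers, none of them at 0, summed to 152, 200, 164 and 230 CPM, higher on day 38 in both treatments. Of these, COL3A1 was at 4.12, 17.9, 2.55 and 16.2 CPM. LAMA4 (7.65, 7.39, 6.48 and 4.68 CPM) and EDNRA (9.02, 8.12, 11.9 and 9.02 CPM) went the other way in both treatments. A list of 6 enteric and autonomic genes summed to 18.4, 35.8, 30.7 and 66.0 CPM, also higher on day 38 in both treatments. The central nervous system list, whose sums are given above, was lower on day 38 in both treatments. The part of these lists in the levels of the members was not tested.

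**Figure D5:**
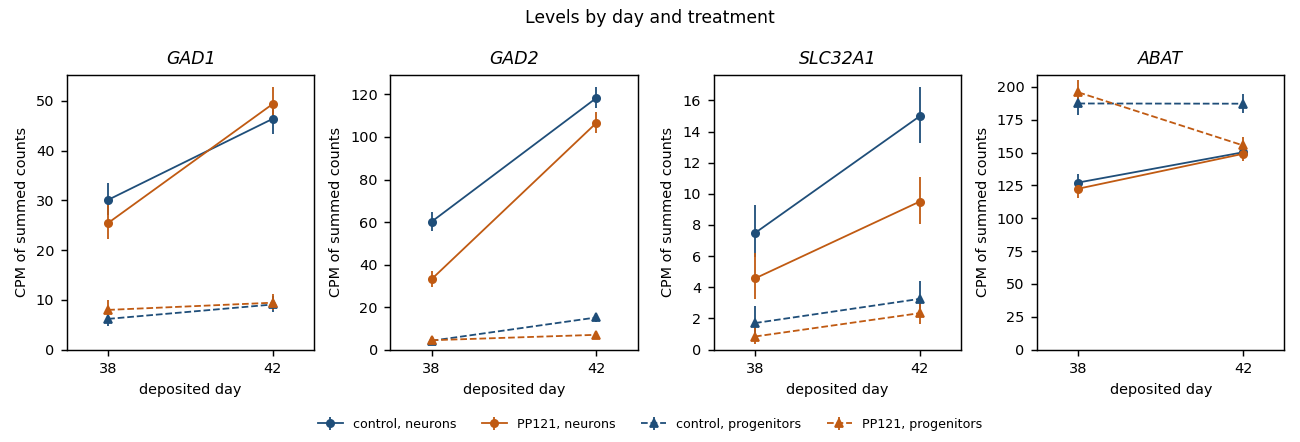
Level of each member in enteric neurons (circles, solid lines) and in both progenitor classes together (triangles, dashed lines) by deposited day, in CPM of summed counts with exact Poisson intervals at 95% (counting error only). Each point is 1 sample, and lines join samples of 1 treatment. In neurons every line is higher at day 42 than at day 38, for GAD2 going from 60.2 to 118 CPM in control and from 33.1 to 107 CPM in PP121 samples.

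The make-up of the neurons moved with the day as well. EN 7, the subtype highest in GAD2, held 253 nuclei in control replicate 1 and 9 in control replicate 2, and EN G 99 and 1 in the PP121 samples. Weighting the day 42 subtype levels by the day 38 subtype shares of UMIs took GAD2 from 119 to 72.6 CPM in control, against 59.4 CPM on day 38, and from 111 to 54.0 CPM in PP121 samples, against 34.1 CPM on day 38. GAD1 went from 46.8 to 31.9 CPM in control (30.3 CPM on day 38) and from 52.6 to 27.1 CPM in PP121 samples (25.8 CPM on day 38). SLC32A1 went from 15.1 to 11.3 CPM in control (7.35 CPM on day 38) and from 9.86 to 5.77 CPM in PP121 samples (4.40 CPM on day 38). The opposite weighting, day 38 levels at day 42 shares, gave 111 CPM of GAD2, 47.8 CPM of GAD1 and 10.1 CPM of SLC32A1 in control, and 74.9, 39.5 and 8.39 CPM in PP121 samples. This opposite weighting takes the day 38 level of EN 7 from 9 nuclei and that of EN G from 1 nucleus. The 2 weightings read differently. Control GAD2 was at 72.6 against 59.4 CPM in the first and at 111 against 119 CPM in the second. PP121 GAD1 was at 27.1 against 25.8 CPM in the first and at 39.5 against 52.6 CPM in the second. Subtypes were clustered on these same counts, so this is a description.

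Of 43 tested pathway genes, 0 passed between days in neurons without treatment in the design, and 4 rose and 7 fell on day 38 with it (9.49% of all genes called), with a median of −0.15 against −0.01 over all genes tested. Those lower on day 38 included GABRG3 (−0.64 ± 0.15 SE), PAX2 (−0.90 ± 0.10 SE), LHX1 (−0.51 ± 0.11 SE), KCTD16 (−0.41 ± 0.10 SE) and ALDH5A1 (−0.57 ± 0.17 SE), the enzyme after ABAT in GABA breakdown. Those higher included KCTD12 (1.67 ± 0.39 SE, with control replicate 1 again the low sample) and GLUL (0.53 ± 0.14 SE), the glutamine synthetase gene. GATA3 (2.06 ± 0.52 SE), a transcription factor of hindbrain and spinal GABAergic neurons, was also higher. Its levels were low throughout, at 0.158, 1.08, 0.653 and 2.06 CPM, lowest in control replicate 1.

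In progenitors 0 of 20260 genes (0%) were called between days without treatment in the design, with 2248 at an unadjusted p under 0.05 and 106 called by DESeq2. With treatment in the design, which called 606 genes (2.99%), GAD2 was lower on day 38 (−1.16 ± 0.30 SE, adjusted p = 0.0191), and GAD1 (−0.28 ± 0.27 SE), SLC32A1 (−1.05 ± 0.45 SE) and ABAT (0.28 ± 0.17 SE) did not pass. GAD2 rests there on 195, 39, 104 and 42 UMIs, and with DESeq2 and treatment in the design it was not called (adjusted p = 0.46). Without PP121 replicate 1 and without treatment in the design, GAD2 was at −1.70, a setting in which day 42 is left only in control.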

How the data were processed

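Single-nucleus RNA sequencing libraries of 4 samples were analysed from the matrices of UMI counts per gene and nucleus that the authors deposited, whose values were all whole numbers. The submitters' processing notes list Cell Ranger (no version) and Seurat 4.0.4 with GRCh38, whereas the study's methods describe kallisto and bustools for the counting; which of these made the matrices was not settled. The authors also deposited a table of nuclei with the percent of mitochondrial counts, the number of features, class, transmitter identities, neuron subtype, cell cycle phase and day. They had kept nuclei within limits on features, UMIs (under 40000) and mitochondrial counts (under 10%) and had set identities on imputed values, with the rule stated for NO neurons only. Of the columns of per-sample values, all were used.

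Counts were summed per sample and class and tested with edgeR's quasi-likelihood test (edgeR 4.0.16, R 4.3.3, TMM, genes kept by its expression filter, Benjamini-Hochberg adjusted p under 0.05). DESeq2 1.42.0 was an alternative. The scripts were tested on simulated data. Replicate numbers mark a shared day: deviations from the group means of same-numbered samples correlated at 0.48 in neurons (18724 genes) and 0.32 in progenitors (18206 genes), so the numbers were taken to pair the samples. For shares of nuclei with a UMI and for the split of neurons by GAD UMIs, each nucleus was thinned to 2000 UMIs, shallower nuclei being left out, and the split was fitted with sample as a block over 8 sums. Doublets were not removed, since a caller's own threshold (Scrublet, through scanpy 1.11.5) marked 0 nuclei, and leaving out the 6% with the highest scores in each sample was an alternative. Intervals are exact, at 95%, and cover counting error only. With 2 samples a group, the precision is set by the replicates rather than by the depth.

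The members and gene lists were chosen with earlier results of these data known. Besides the members and the lists, the text names the 10 largest rises and 5 largest falls of the split among genes called, with a mean of at least 10 CPM and 1 direction in all 4 samples. For each member it also names the 5 genes most like it across subtype sums. Further alternatives were no filter on low counts, neurons and progenitors from clusters over all samples, the left-out control nuclei put back by nearest neighbours, other thinning depths, a split by either GAD gene alone, and each sample left out. DESeq2 with the block or with treatment, the doublet setting and the test of day between classes were added after seeing the data. Results of some listed genes are not reported here.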

Additional observations from a re-analysis of the deposited data

Results flagged for a closer look

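ABAT differed in its relation to the day between classes. In enteric neurons it was higher on day 42 than on day 38 in both treatments, by 1.18-fold in control and 1.22-fold in PP121 samples, whereas in progenitors the ratio was 0.999 in control and 0.794 in PP121 samples. The test of the difference between the classes gave −0.47 ± 0.19 SE on the log2 scale (edgeR adjusted p = 1.00), and −0.47 ± 0.17 SE with treatment in the design (adjusted p = 1.00), so it did not pass. This test was added after the levels had been seen.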

How the results depend on the processing

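Genes called between PP121 and control in neurons numbered 0 as reported, 102 with DESeq2, 69 with no filter on low counts, 3152 with the replicate block, 640 with DESeq2 and the block, 1019 with the block and joint clusters, and 0 to 1402 with 1 sample left out. In progenitors they were 0, 43, 270, 349, 109, 624 and 0 to 168 in the same order. Between days, neurons gave 0 as reported, 59 with DESeq2, 158 with no filter, 2015 with treatment in the design, 466 with DESeq2 and treatment, and 2 to 271 with 1 sample left out. Progenitors gave 0, 106, 40, 606, 164 and 2 to 1031, and the difference between days across classes called 1 gene with DESeq2. The split by GAD UMIs called 465 genes, 223 with DESeq2, 738 at 4000 UMIs, 1102 without thinning, 200 by GAD1 alone and 223 to 549 with 1 sample left out.

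Of the members, these crossed the threshold (log2 fold changes). For day 38 against day 42 in neurons, GAD1 was called with treatment in the design (−0.72, and −0.72 with DESeq2), SLC32A1 with treatment (−0.96), and GAD2 with DESeq2 (−1.20), DESeq2 and treatment (−1.25), no filter (−1.22) and treatment (−1.25), with −1.68 to −0.86 when 1 sample was left out. In progenitors GAD2 was called with treatment (−1.16), with −1.70 to −0.60 when 1 sample was left out. For PP121, the replicate block gave calls for GAD2 (−0.42) and SLC32A1 (−0.64) in neurons; the block changed no other call of a member. In the split, SLC32A1 was called at 4000 UMIs (1.33) and without thinning (1.79), and ABAT was not called with DESeq2 (0.48), by GAD1 alone (0.35) or by GAD2 alone (0.39), with 0.38 to 0.53 when 1 sample was left out.

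Values near 0 changed sign. In neurons the PP121 value of GAD1 was −0.015 with the replicate block, −0.018 with DESeq2 and the block, −0.0096 with joint clusters and −0.032 with joint clusters and the block, and that of ABAT was −0.086 with joint clusters and −0.087 with joint clusters and the block. In progenitors ABAT was 0.011 with joint clusters and 0.023 with the left-out nuclei put back. In the test of the difference between classes, SLC32A1 was 0.0061 with DESeq2 and 0.14 with joint clusters, and ABAT −0.12 with joint clusters. With 1 sample left out, the PP121 values in neurons ran from −0.52 to 0.38 for GAD1, −1.36 to 0.27 for GAD2, −1.24 to −0.058 for SLC32A1 and −0.11 to 0.12 for ABAT. In progenitors they ran from −0.0041 to 0.44 for GAD1, −1.35 to 0.40 for GAD2 and −0.33 to 0.12 for ABAT. Differences between classes ran from −0.62 to 0.14 for GAD1, −0.26 to 0.82 for GAD2, −0.081 to 0.29 for SLC32A1 and −0.22 to 0.45 for ABAT. The share of neurons with a GAD1 UMI differed by −0.179 points at 1000 UMIs, −0.669 at 4000, −2.09 without thinning and −0.499 on day 38 (the replicate block), and by −1.39 to 2.50 with 1 sample left out; GAD2 ran from −8.74 to 3.14. For ABAT it was 0.552 at 1000 UMIs, 0.226 on day 42 and −2.93 to 2.69. PIGX was −0.70 by GAD1 alone. Of all other values, 267 of the comparisons and members and 223 of the further genes kept their direction and side of the threshold, and 16 of the further genes lost their call. The causes were not tested. Depth limits SLC32A1 most, at 40 to 284 UMIs in all neurons of a sample, and 2 samples a group limit every call. A design of 2 against 2 leaves 1 residual degree of freedom with a block, and joint clusters, thinning and doublet scores rest on the same counts as the levels.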

Other observations

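Serotonergic neurons had 176, 94.3, 158 and 45.1 CPM of GAD2, and those without the GABAergic identity had 148, 37.8, 36.3 and 12.3 CPM, highest in control replicate 1. Catecholaminergic neurons had 84.0, 35.6, 66.3 and 25.8 CPM of GAD2 and, without the GABAergic identity, 64.8, 11.2, 8.23 and 6.75 CPM. GAD1 in the same catecholaminergic neurons without the GABAergic identity was at 11.1, 6.51, 9.99 and 10.1 CPM, and SLC32A1 at 11.5, 1.86, 1.18 and 1.35 CPM, on 27, 6, 4 and 4 UMIs. Neurons named GABAergic and nothing else numbered 125, 22, 31 and 7.

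By deposited cell cycle phase, GAD2 was at 138, 66.3, 107 and 35.4 CPM in neurons called G1, 104, 57.8, 104 and 35.5 CPM in S, and 65.6, 36.0, 109 and 17.6 CPM in G2M. The order of the phases differed between samples, since in PP121 replicate 1 the G2M level was not below the others. The 372 and 196 control nuclei that the annotation left out although they were within the stated limits had little GAD2, at 4.60 and 2.65 CPM, with 62.7 and 58.9 CPM of ABAT, and 343 and 181 of them were nearest to progenitor 1.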
